A study of Mus musculus with 6 samples.

Results

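Vmp1 and 9 core genes of the autophagy machinery (Atg5, Atg7, Atg12, Atg16l1, Becn1, Map1lc3b, Sqstm1, Gabarapl1 and Ulk1) were compared between colon mucosa of miR-21 knockout (KO) mice and of wild type (WT) mice; miR-21 is a microRNA. All probes that the array table gives for these genes were taken, with Vmp1 found under its older symbol Tmem49. This gave 17 probes for 10 genes, 5 of them for Vmp1, among 25697 probes (17940 gene symbols) on the array, and all 17 entered the test with 13737 probes in all. Each group held 3 samples, and each sample was total RNA read on 1 single-colour (Cy3) bead array. The KO samples came from untreated miR-21-/- mice on a C57BL/6 background, supplied by another laboratory and reported by the submitters to be free of spontaneous colitis. The WT samples came from untreated C57BL/6 mice bought from Taconic. Genotype and source of the mice therefore cannot be told apart in any value below. The sources used here do not give the structure of the deleted allele, the age or sex of the mice, or whether a sample is 1 animal or a pool, and p-values therefore rest on a spread among samples that may partly be technical.

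Autophagy encloses cytoplasm in a double membrane, the autophagosome, and delivers it to the lysosome. The ULK1 kinase complex starts the process, a class III PI3 kinase with Beclin 1 marks the growing membrane, and a pair of ubiquitin-like conjugation systems (ATG7, ATG12, ATG5 and ATG16L1) attach proteins of the LC3 and GABARAP family to it. In the intestine this machinery is known for its part in secretion by goblet and Paneth cells and in defence against bacteria, and ATG16L1 is a susceptibility gene for Crohn disease in humans. Vmp1 encodes a membrane protein of the endoplasmic reticulum that is needed for autophagosomes to form. It is listed here with the microRNA because the miR-21 hairpin lies at the 3′ end of the Vmp1 gene, and the primary transcript of the microRNA can start inside Vmp1 or arise from transcription that runs on past the end of the Vmp1 coding region.

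The sequences below are from RefSeq (GRCm38.p6), and those of Mir21a show the microRNA that the KO mice lack. The Mir21a hairpin lies at chr11:86584067-86584158 on the minus strand and the annotated Vmp1 gene at chr11:86583858-86683836 on the same strand. The hairpin is thus inside the annotated span of Vmp1, 209 bases from its 3′ end and 99678 bases from its start, and RefSeq lists 4 Vmp1 transcripts. In the hairpin the capitals mark the mature strands, and in the mature strands they mark the seed, bases 2 to 8. The mature sequence of miR-21c, encoded on chromosome 8, is shown because it is the only other one of 1738 mature mouse microRNAs in the table with the seed of miR-21a-5p.
Mir21a hairpin: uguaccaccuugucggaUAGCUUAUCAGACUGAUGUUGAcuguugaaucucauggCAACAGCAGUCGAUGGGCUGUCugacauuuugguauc
mmu-miR-21a-5p: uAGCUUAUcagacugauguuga
mmu-miR-21a-3p: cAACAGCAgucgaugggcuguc
mmu-miR-21c: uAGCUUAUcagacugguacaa
The array has no probe for the microRNA, so the deletion itself was not measured. The 5 Vmp1 probes were designed on 2 successive versions of the same RefSeq transcript, 2 probes on the earlier and 3 on the later version. Their positions along the gene, and so their distance from the hairpin, were not analysed here.

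Median intensity was 98.3 to 109.3 on the KO arrays and 97 to 115 on the WT arrays, which overlap. The share of probes detected was 53.9 to 54.6 percent on KO arrays and 50.4 to 52.3 percent on WT arrays, where detected means a detection p-value under 0.05 against the negative control beads. Every KO array thus lay above every WT array in that share, and its part in the results was not tested. The third replicate of each group was the dimmest array of its group. Each reading of the 17 probes came from 19 to 54 beads, and its standard error over beads was 1.76 to 6.60 percent. Values are given below as normalised log2 intensity, which has an offset of 16 added before the logarithm and so understates the change of dim probes. Differences are KO minus WT from limma, with a standard error (SE), and were called where the Benjamini-Hochberg adjusted p over all 13737 tested probes was under 0.05. In tissue samples, fewer cells that express a gene and less RNA per cell cannot be told apart.

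Of the 17 probes 6 passed the threshold, 3 of them higher in KO and 3 lower. That share is 35.3 percent, against 15.1 percent over all tested probes (7.53 percent higher, 7.55 percent lower). Of these 6 probes 2, ILMN_2591777 and ILMN_2591781 of Vmp1, entered the test only through WT, where they were detected. Among probes detected on all 6 arrays 4 of 15 passed (26.7 percent), 3 higher and 1 lower, against 17.6 percent of all such probes. Vmp1 accounted for 4 of the 6. Among the 12 probes of the other 9 genes 2 passed, 16.7 percent, which is close to the share over all tested probes (15.1 percent), and their median log2 difference was 0.01, against 0.03 over all tested probes. The other 2 were 1 probe each of Gabarapl1 and Ulk1. KO and WT arrays were fully apart for 9 of the 17 probes, where the share over all tested probes was 36.4 percent. The 9 include ILMN_2591777 and ILMN_2591781, and among the 12 probes of the other genes it was 5. Without KO replicate 1, without KO replicate 2 or without WT replicate 1 the count of called probes was 3, all of them probes of Vmp1. They were ILMN_2861787, higher in KO, and ILMN_2591777 and ILMN_2591781, lower in KO. The last 2 entered the test only through WT, so the share of 17.6 percent of the 17 rests largely on the filter. It is therefore not a like measure to the 6.7, 3.35 and 6.52 percent of all tested probes called in these fits.

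The Vmp1 probes disagreed with each other. ILMN_2861787 was far brighter in KO. Its raw intensity was 536.6, 579.7 and 349.3 on KO replicates 1 to 3, against 111.9, 132.1 and 99.7 on WT replicates 1 to 3. On the normalised scale this was 8.65, 8.78 and 8.53 in KO and 4.70, 5.31 and 4.91 in WT. The lowest KO array lay more than 3 log2 units above the highest WT array, and the log2 difference was 3.68 ± 0.18 (SE, n = 3 per group, adjusted p = 6.44e-06). It ranked sixth among all increases of tested probes. The WT readings were close to background, with detection p-values of 0.0263, 0 and 0.0163 and a lowest detected level of 4.59 to 4.65 on those arrays. The size of the difference accordingly moved with the background treatment: it was 2.10 with no background correction and 2.73 with an offset of 50, and the probe was called in all 17 alternatives tried.

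**Figure D1:**
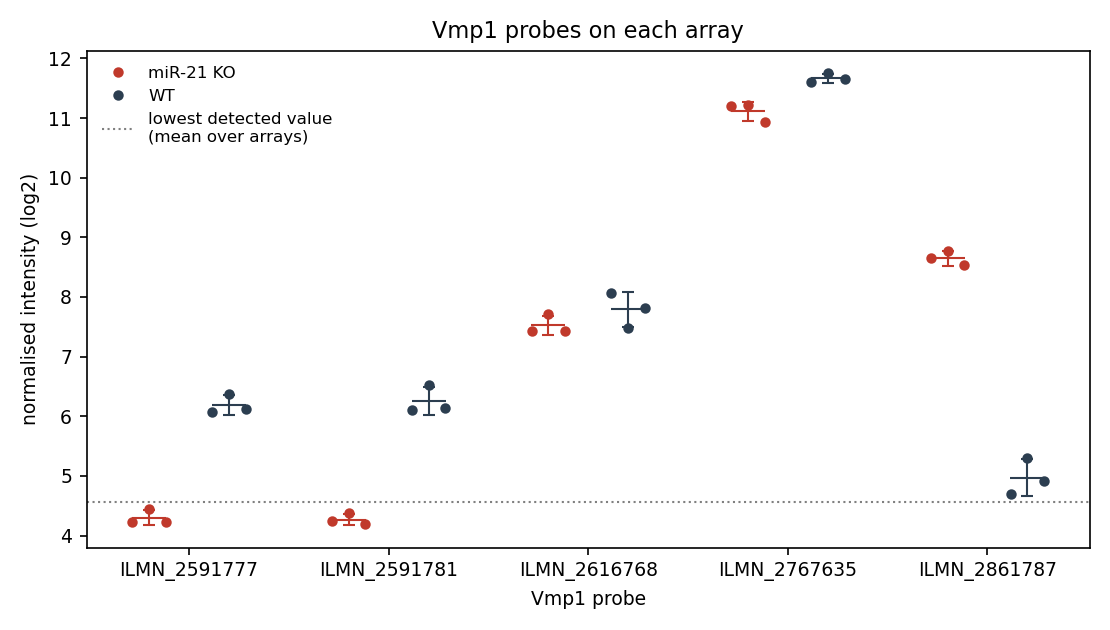
Normalised log2 intensity of the 5 Vmp1 probes (x axis) on each array, with miR-21 KO to the left of WT within each probe; points are arrays, the horizontal mark is the group mean and the bar the SD (n = 3). The KO points lie below the lowest detected level (dotted line) for ILMN_2591777 and ILMN_2591781 and more than 3 log2 units above the WT points for ILMN_2861787, and the groups overlap for ILMN_2616768.

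ILMN_2591777 and ILMN_2591781 went the other way. Probe ILMN_2591777 read 4.23, 4.44 and 4.22 in KO and 6.07, 6.38 and 6.11 in WT. Its KO intensities of 96.6, 103.2 and 89.7 had detection p-values of 0.570, 0.0915 and 0.653, so no KO array detected it, while all 3 WT arrays did at 154.9, 187 and 122. ILMN_2591781 gave nearly the same readings as ILMN_2591777 on every array, with 4.24, 4.37 and 4.19 in KO and 6.10, 6.53 and 6.14 in WT. No KO array detected it either, and all 3 WT arrays did. Since KO was below detection the fold is a bound: ILMN_2591777 was lower in KO by at least 3.15-fold (adjusted p = 0.000209) and ILMN_2591781 by at least 3.31-fold (adjusted p = 0.000228). The bound sets the WT mean against, for each KO array, the higher of the probe's own value and the lowest value of any detected probe. Both probes entered the test only through WT, so these adjusted p-values are not independent of the filter. Both calls held in all 16 alternatives in which the probes could be tested. In the limma fit with no filter on dim probes the adjusted p was 0.00291 and 0.00379. The fit of probes detected on all 6 arrays leaves both out. The size, the bound included, rests on the background correction used: the fitted log2 differences were -0.66 and -0.71 with no background correction and -0.99 and -1.05 with an offset of 50.

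ILMN_2767635, a bright probe on all arrays, was moderately lower in KO. It read 11.20, 11.21 and 10.93 in KO and 11.60, 11.75 and 11.65 in WT, and the groups did not overlap. The log2 difference was -0.55 ± 0.14 (SE, n = 3 per group, adjusted p = 0.0322). That call was lost on leaving out any 1 of the 6 arrays, with adjusted p from 0.0658 to 0.0905, while the difference stayed between -0.60 and -0.46. ILMN_2616768 did not pass: it read 7.43, 7.71 and 7.44 in KO and 8.08, 7.49 and 7.81 in WT, so that WT replicate 2 lay among the KO arrays. Its log2 difference was -0.27, with a 95 percent interval from -0.67 to 0.13 (adjusted p = 0.336).

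The probes were also set against each other within each array, which cancels a factor common to all probes of an array. The excess of ILMN_2861787 over ILMN_2767635 was -2.55, -2.43 and -2.40 log2 units on the KO arrays and -6.90, -6.44 and -6.74 on the WT arrays. The change between genotypes thus differed by 4.23 log2 units between these probes, or by 2.63 without background correction. Between ILMN_2861787 and ILMN_2616768 it differed by 3.95, or by 2.29 without background correction. In both comparisons the genotypes did not overlap, and the exact two-sided permutation test gave p = 0.1, the smallest that 3 arrays against 3 allow (0.125 adjusted over the 5 pairs computed, of which 2 hold a probe not detected in KO and are not given). ILMN_2616768 and ILMN_2767635 differed by 0.29 in their change (exact permutation p = 0.2), with overlapping groups. Vmp1 was 1 of 6 genes with called probes in both directions, among 2507 with several tested probes, the others being Ercc5, Saraf, Smc1a, Snapc3 and Zfp68. These 5 genes were named after their values were seen. A gene with more probes has more chances to be among the 6, and 19 genes had 5 or more tested probes.

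**Figure D2:**
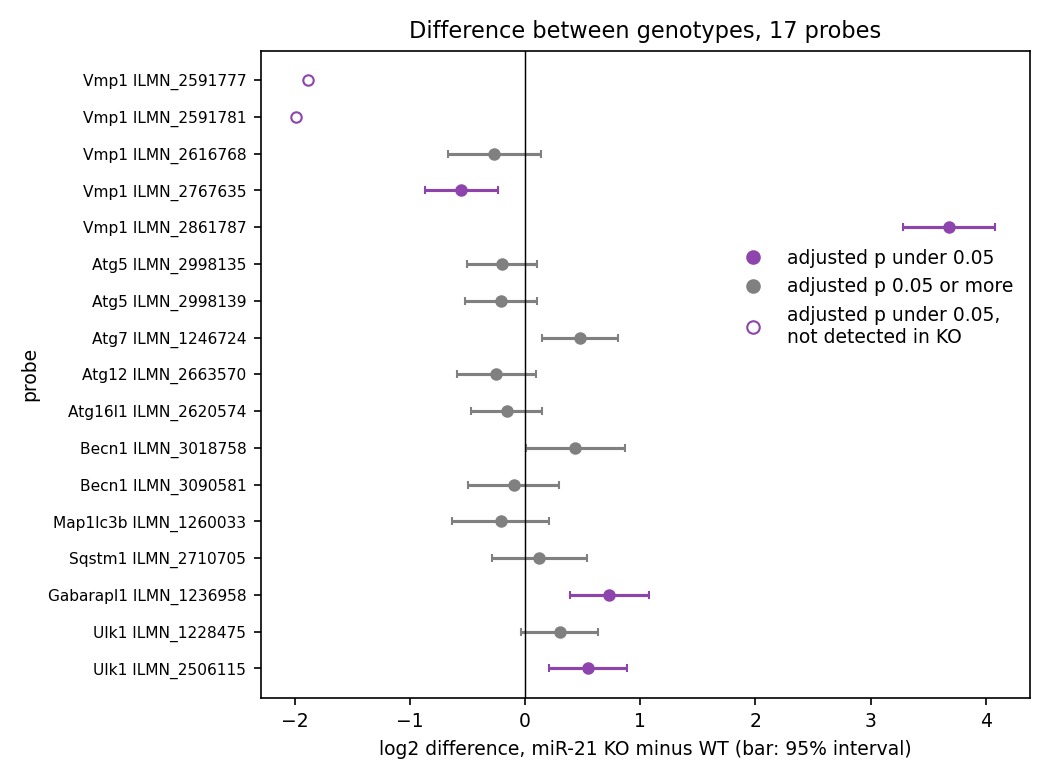
Log2 difference, miR-21 KO minus WT (x axis), with its 95 percent interval from limma, for each of the 17 probes (y axis); purple marks an adjusted p under 0.05. Open points, with no interval, are the Vmp1 probes not detected on any KO array, whose fitted difference is not a measured size; ILMN_2861787 of Vmp1 lies at 3.68, and the 12 probes of the other genes lie between -0.25 and 0.73.

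Among the initiation genes, Ulk1, the kinase that starts autophagy, read higher in KO on both of its probes, of which 1 passed. ILMN_2506115 had 7.12, 7.21 and 7.16 in KO and 6.50, 6.86 and 6.48 in WT, a log2 difference of 0.55 ± 0.15 (SE, n = 3 per group, adjusted p = 0.0402). ILMN_1228475 had 7.60, 7.74 and 7.65 in KO and 7.15, 7.56 and 7.38 in WT, a difference of 0.30 with an interval from -0.04 to 0.64 (adjusted p = 0.198). The groups were apart for both probes, with WT replicate 2 nearest to KO. The call of ILMN_2506115 is a marginal one. It was kept without WT replicate 2 and lost without any other single array (adjusted p up to 0.140), with median scaling (0.133) and with no filter on dim probes (0.0506).

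Becn1 encodes Beclin 1, the scaffold of the class III PI3 kinase complex, and its 2 probes gave no common direction. ILMN_3018758 read 6.64, 6.61 and 6.26 in KO and 6.29, 5.70 and 6.21 in WT (log2 difference 0.44, interval 0.01 to 0.87, adjusted p = 0.147). ILMN_3090581 read 5.84, 6.07 and 5.86 in KO and 5.75, 5.96 and 6.35 in WT (-0.10, interval -0.49 to 0.30, adjusted p = 0.739). The groups overlapped for both probes.

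None of the 5 probes for the conjugation genes passed with limma at the adjusted threshold, and 1 of them had an unadjusted p under 0.05. That was the probe of Atg7, the E1-like enzyme that activates both ubiquitin-like systems, which read 5.75, 5.74 and 5.60 in KO and 5.07, 5.43 and 5.15 in WT. All KO arrays lay above all WT arrays, and the log2 difference was 0.48 ± 0.15 (SE, adjusted p = 0.0579). Of 17 alternatives it passed in 2, with array weights (0.0179) and without WT replicate 2 (0.0345). The probe is dim, with raw intensities from 102.6 to 144.4, and its difference was 0.17 with no background correction. The other conjugation genes had small negative differences. Atg5, which ATG12 is attached to, had -0.20 on ILMN_2998135, with 10.03, 10.10 and 10.19 in KO and 10.43, 10.26 and 10.24 in WT, and -0.21 on ILMN_2998139, with adjusted p of 0.336 and 0.343. For Atg12, the ubiquitin-like protein itself, the values were 9.26, 9.42 and 9.55 in KO and 9.78, 9.45 and 9.75 in WT (-0.25, interval -0.59 to 0.09, adjusted p = 0.292). Atg16l1, which brings the ATG12-ATG5 conjugate to the membrane, read 8.26, 8.28 and 8.21 in KO and 8.26, 8.55 and 8.42 in WT (-0.16, interval -0.47 to 0.15, adjusted p = 0.457). These intervals leave room for changes of up to about 0.6 log2 units, so equal levels in both genotypes are not shown.

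**Figure D3:**
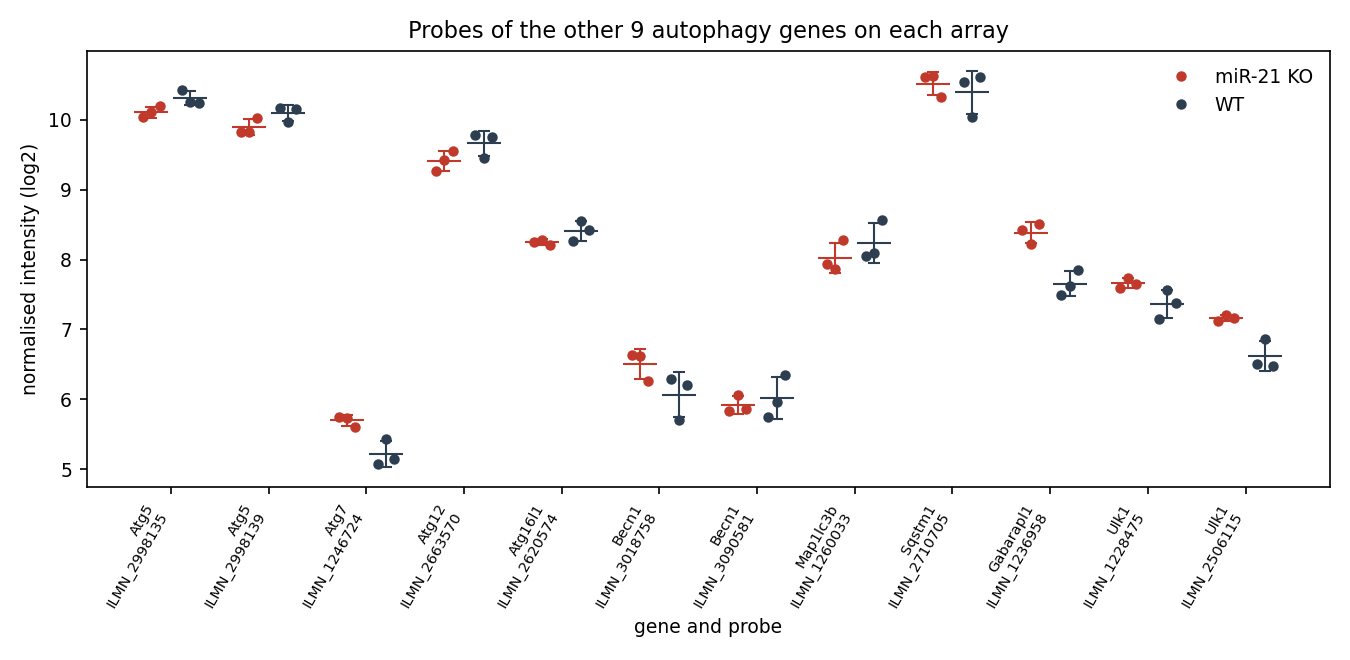
Normalised log2 intensity of the 12 probes of the other 9 genes (x axis) on each array, with miR-21 KO to the left of WT; points are arrays, the horizontal mark is the group mean and the bar the SD (n = 3). The groups are apart for Gabarapl1, both Ulk1 probes, Atg7 and 1 Atg5 probe, and overlap for the others.

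Gabarapl1, a member of the LC3 and GABARAP family that is conjugated to the autophagosome membrane, rose in KO. It read 8.42, 8.22 and 8.51 in KO and 7.49, 7.63 and 7.84 in WT, with no overlap. The log2 difference was 0.73 ± 0.15 (SE, n = 3 per group, adjusted p = 0.0170), a 1.66-fold higher level. It stayed between 0.56 and 0.83 in the 17 alternatives. The adjusted p passed 0.05 on leaving out KO replicate 1 (0.0540), KO replicate 2 (0.0501) or WT replicate 1 (0.0589). Map1lc3b, the LC3 protein most used as a marker of autophagosomes, did not pass. Its values were 7.94, 7.87 and 8.27 in KO and 8.05, 8.09 and 8.57 in WT, in both groups highest on the third array (-0.21, interval -0.63 to 0.20, adjusted p = 0.463). Sqstm1 encodes p62, the receptor that links ubiquitinated cargo to LC3. It read 10.61, 10.62 and 10.32 in KO and 10.53, 10.04 and 10.61 in WT, and its difference of 0.12 (interval -0.29 to 0.53, adjusted p = 0.684) turned negative with median scaling (-0.07) and without WT replicate 2 (-0.05).

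**Figure D4:**
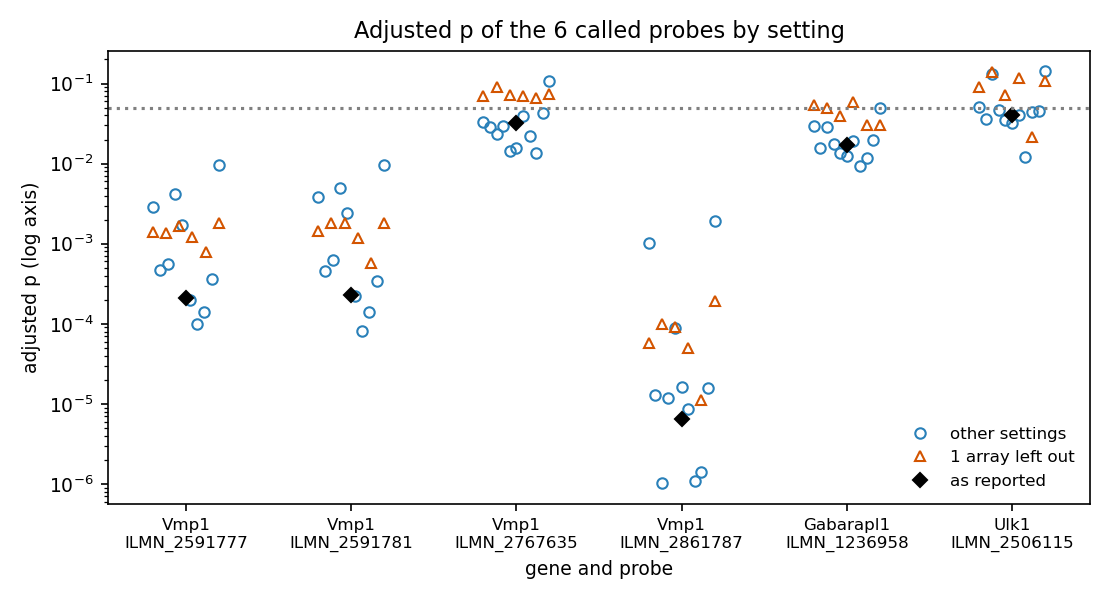
Adjusted p (log axis) of the 6 called probes (x axis) in the fit as reported (black), with 1 array left out (triangles) and under the other alternatives (circles); the dotted line is 0.05. ILMN_2591777, ILMN_2591781 and ILMN_2861787 of Vmp1 stay below the line under every alternative in which they were tested. ILMN_2767635 of Vmp1, Gabarapl1 and Ulk1 cross the line under some.

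The members were then set in the wider pathway with a list of 75 autophagy genes in 8 steps, drawn up from general knowledge, which holds the 10 members as well. For 60 genes a probe was tested, 9 had probes detected on too few arrays, and 6 were not analysed here. Taking for each gene its probe with the highest mean, 3 genes were higher and 6 lower in KO, 15 percent of those tested, against 15.7 percent of all 10348 tested genes (8.04 percent higher, 7.63 percent lower). The median log2 difference was -0.04, against 0.03 over all genes. Vmp1 counts among the lower genes through ILMN_2767635, whose call was lost on leaving out any 1 array, while ILMN_2861787 read 3.68 log2 units higher. Wipi1, a phosphoinositide-binding protein named here after its values were seen, was not called by its main probe (0.43, adjusted p = 0.0738) but was by another, ILMN_1236411 (0.64, adjusted p = 0.0297). Its remaining tested probe, ILMN_1216091, was detected on 3 of the 6 arrays and was not called (0.10, adjusted p = 0.765). Beyond the members 7 of 50 genes were called (14 percent). The count for the list was 2 without KO replicate 1, 1 without KO replicate 2, 2 without WT replicate 1 and 3 without WT replicate 3. These are 3.33, 1.67, 3.33 and 5 percent of the listed genes. The share of all tested probes fell in the same fits, to 6.7, 3.35, 6.52 and 6.57 percent. With every tested probe counted, 16 of 94 passed (17 percent), against 15.1 percent of all tested probes. The 16 include ILMN_2591777 and ILMN_2591781 of Vmp1, which entered the test only through WT. With no filter on dim probes 9 of 69 genes passed (13 percent). The share of all 25697 probes in that fit was 5.81 percent. It counts probes rather than genes and includes probes that few or no arrays detected, so it is not a like measure. No test was made of the list against the array.

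The 7 called genes beyond the members were spread over 5 of the 8 steps. Fundc1 and Bnip3l, both receptors that mark mitochondria for autophagy, were lower. Fundc1 read 9.32, 9.18 and 9.48 in KO and 10.16, 10.12 and 9.98 in WT (-0.76 ± 0.14, adjusted p = 0.0127), and its other tested probe was lower too (-0.83, adjusted p = 0.00956). Bnip3l read 10.58, 10.51 and 10.63 in KO and 11.11, 11.11 and 11.12 in WT (-0.54 ± 0.13, adjusted p = 0.0253). In the class III PI3 kinase complex, which Beclin 1 belongs to, the catalytic subunit gene Pik3c3 had 8.67, 8.67 and 8.51 in KO and 9.16, 9.28 and 9.22 in WT (-0.60 ± 0.13, adjusted p = 0.0198). The gene of a further subunit, Nrbf2, had 6.84, 6.94 and 6.74 in KO and 7.61, 7.50 and 7.66 in WT (-0.75 ± 0.13, adjusted p = 0.0108). Vamp8, a SNARE protein of the step that joins autophagosome and lysosome, was lower on both probes, with -0.46 (adjusted p = 0.0444) and -0.63 (adjusted p = 0.0298). Atg101, a subunit of the ULK1 complex, and Ei24, a membrane protein of the endoplasmic reticulum, were higher, by 0.53 ± 0.14 (adjusted p = 0.0361) and 0.63 ± 0.16 (adjusted p = 0.0349). The groups did not overlap for any of these 7 genes, nor for 37.5 percent of all tested genes. Of the 17 alternatives, the call of Fundc1 was lost in 1 (without KO replicate 2) and that of Nrbf2 in 2, while those of Bnip3l, Pik3c3, Ei24, Atg101 and Vamp8 were lost in 5, 6, 8, 9 and 9. For these 5 genes leaving out single arrays ended the call: KO replicates 1 and 2 and WT replicate 1 in each of them, WT replicate 3 likewise, WT replicate 2 in Atg101, Ei24 and Vamp8, and KO replicate 3 in Atg101 and Vamp8.

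**Figure D5:**
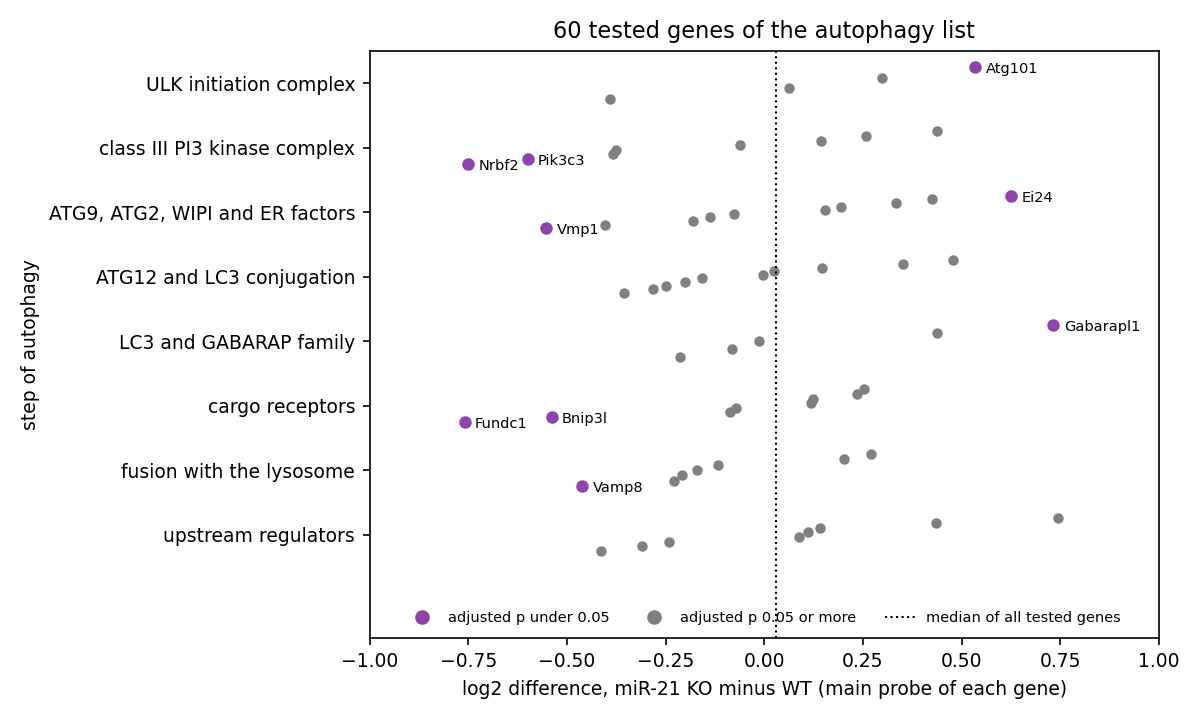
Log2 difference, miR-21 KO minus WT (x axis), of the 60 tested genes of the autophagy list, 1 point per gene by its main probe, in rows by step; purple points are named and have an adjusted p under 0.05. The 3 higher and 6 lower genes lie in 6 rows, and the rows of ATG12 and LC3 conjugation and of upstream regulators hold none.

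The gene whose main probe had the highest mean was also named in each step, as a choice of what to describe and not as a ranking of levels. Of these 8 genes 3 passed (Atg101, Pik3c3 and Vmp1, given above), where 15.7 percent of all tested genes did. A set of 8 genes is too small for these shares to be compared. For conjugation it was Irgm1, an immunity-related GTPase (0.15, adjusted p = 0.566), for the LC3 family Gabarap (-0.08, 0.718), for receptors Tax1bp1 (-0.09, 0.785) and for fusion the lysosomal membrane protein gene Lamp2 (-0.17, 0.433, with all 4 of its probes below 0 and none called). Among upstream regulators it was Trp53inp1, a stress-induced autophagy factor (-0.41, 0.0859). The difference of Irgm1 turned to -0.05 with median scaling, and its other tested probe read -0.72 (adjusted p = 0.0771).

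The genes whose pattern over the 6 arrays was closest to that of Vmp1 depended on the probe. Closeness was the root mean square difference of log2 values after each probe was centred on its own mean, over 13732 other probes. Closest to ILMN_2861787 was Lpo, lactoperoxidase, also on chromosome 11, at 0.31, followed at 0.55 or more by Rgs5, Best2, Timmdc1 and Anxa4. These 5 were higher in KO by 2.27 to 4.17 log2 units. The largest value is that of Lpo, which was not detected on all 6 arrays, so its size is not a measured one. It was as low as 2.14 under the alternatives tried. Closest to ILMN_2767635 were Zfp62, also on chromosome 11, at 0.05 and Pik3c3 at 0.05, followed by Rai14, Wdr3 and Gal3st2 at up to 0.06. These 5 had differences from -0.60 to -0.47, and 3 of them passed the threshold. Lists of this kind follow from the difference between the groups and are a description of these arrays.

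Marker genes of several cell types moved with genotype in the same samples, and their part in the results above was not tested. Summed over the tested markers of a type, on the log2 scale, colonocyte markers ranged from 14.39 to 14.61 in KO and from 14.96 to 15.21 in WT, with 4 of 6 called lower. Adipocyte markers ranged from 12.56 to 14.18 in KO and from 7.62 to 11.54 in WT, with 6 of 6 higher. B cell markers ranged from 7.53 to 7.91 in KO and from 9.22 to 11.49 in WT, with 4 of 4 lower, and T cell markers from 6.65 to 7.35 in KO and from 7.56 to 9.11 in WT, with 2 of 3 lower. Of 5 endothelial markers 4 were higher (9.04 to 9.31 in KO and 7.98 to 8.18 in WT). Goblet cell markers did not pass for any of 4 (14.93 to 15.08 in KO and 14.69 to 14.81 in WT), nor did macrophage markers for any of 5 (11.22 to 11.86 in KO and 11.74 to 13.10 in WT). Of 6 smooth muscle markers 1 was higher (14.77 to 15.26 in KO and 13.98 to 14.88 in WT), as was 1 of 6 fibroblast markers (13.72 to 13.80 in KO and 13.40 to 13.79 in WT). Defining markers detected on no array were Fabp4 of adipocytes, Cd8a of T cells, Itgam of macrophages and Kdr of endothelium, while the colonocyte and goblet cell markers that were measured were each detected in both groups.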

How the data were processed

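Per the file headers, the deposited probe table gives for each probe and array the mean intensity over beads, its detection p-value and the number of beads. The authors name the intensity table as not normalised. A further deposited table holds the authors' log2 values. The submitters' processing notes name limma without version or role, and no source used here names the array-reading software. The values computed here and the authors' log2 values correlated at 0.9999 on each array.

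Intensities were normalised under R 4.3.3 by the neqc function of limma 3.58.1, with statmod 1.5.0 for the block. It corrects background by normexp (negative controls inferred from the detection p-values), applies quantile normalisation, adds an offset of 16 and takes log2. A probe was tested (lmFit and eBayes, KO minus WT) if 3 or more of the 6 arrays detected it. Tested on simulated data for 13737 probes, 200 of them changed, the fit recovered 68 percent of log2 changes of 1 and 96 percent of changes of 2. Noise was drawn independently for each probe there, and far more probes (2071) were called in the data, so recovery in the data can differ. The number of arrays limits the precision. Symbols were updated through RefSeq (GRCm38.p6), through the Entrez ID in 23788 probes and the accession in 1148, while 761 kept the table's symbol. The members, lists and probe pairs were chosen with earlier results of these data known. Genes named are all members, the called genes of the wider list, the gene of each step whose main probe had the highest mean, and the 5 probes closest in pattern to a pair of Vmp1 probes. Alternatives covered the filter, normalisation, background, offset, the authors' values, array weights, variance model, replicate block and single arrays left out.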

Additional observations from a re-analysis of the deposited data

How the results depend on the processing

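The calls of Vmp1 probes ILMN_2591777, ILMN_2591781 and ILMN_2861787 and the direction of every Vmp1 probe held under all alternatives in which they were computed. ILMN_2591777 and ILMN_2591781 entered the test only through WT. The stricter filter, detection on all 6 arrays, removes both, so their calls could not be checked under it. The count of all called probes (2071, with 1034 higher and 1037 lower) was 1180 with median scaling (438 higher, 742 lower), 3772 with array weights, 839 on the 4 brighter arrays and 460 to 2116 with 1 array left out. The use of the 4 brighter arrays alone was chosen after seeing the data. The count of called member probes (6) was 3 to 6 with 1 array left out. The count of called genes of the wider list (9) was 5 with median scaling, 19 with array weights, 3 on the 4 brighter arrays, 16 of 94 when every tested probe was counted, and 1 to 7 with 1 array left out. Fewer arrays enter the fits that leave arrays out. The cause of the other shifts was not tested. ILMN_2767635 of Vmp1 was no longer called on the 4 brighter arrays (-0.47, adjusted p = 0.107) or without any 1 array (-0.60 to -0.46). Differences that changed sign were small and not called: ILMN_3090581 of Becn1 (0.030 with array weights, 0.096 on the 4 brighter arrays, 0.066 without WT replicate 3 and -0.23 to 0.066 over single arrays left out), Sqstm1 (-0.066 with median scaling, -0.054 without WT replicate 2 and -0.054 to 0.23 over single arrays left out) and Irgm1 (-0.050 with median scaling, -0.022 on the 4 brighter arrays). Deviations of a KO array correlated most with those of the same-numbered WT array for only 1 of 3 numbers (same-number correlations 0.01, 0.15 and 0.06). The numbers were therefore not taken as pairs. With the replicate number as a block the counts were 2154 probes, 6 member probes and 7 listed genes, the calls of Atg101 (adjusted p = 0.0544) and Vamp8 (0.0679) being lost. Signal over background limits the sizes for ILMN_2591777, ILMN_2591781 and ILMN_2861787: without background correction their fitted log2 differences were -0.66, -0.71 and 2.10.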
